A study of Mus musculus with 2 samples.

Results

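Vim, Cdh2, S100a4, Tgfbi, Mmp2, Mmp3, Mmp14 and Timp1 were followed through luminal-labelled mouse mammary tumor cells. They encode vimentin, N-cadherin, S100A4, the TGF-beta-induced matrix protein TGFBI, 3 matrix metalloproteinases and a tissue inhibitor of metalloproteinases. The 8 genes are a named set, looked up by symbol among the 32285 genes in the matrices, and all 8 were found. Tumors came from 2 mice of 1 genotype, Krt8-CreERT/Rosa26-mTmG/MMTV-PyMT, and there was no untreated or normal-tissue group. MMTV-PyMT drives the polyoma middle T oncogene in mammary epithelium, Krt8-CreERT expresses a recombinase, active once tamoxifen is given, from the promoter of the luminal keratin gene Krt8, and mTmG switches a cell and its descendants to green fluorescent protein (GFP) where the recombinase acts. Both mice were given tamoxifen at 150 mg/kg on 6 days in weeks 5 and 6, and their tumors were taken at a volume of 1.5 cm3. Viable GFP-positive cells that lacked the endothelial protein CD31 and the leukocyte protein CD45 were sorted, a gate that does not remove fibroblasts or pericytes that carry GFP.

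Single-cell transcripts were counted as unique molecular identifiers (UMIs), each standing for 1 captured molecule. The matrices held 63140346 UMIs in 6175 barcodes for mouse 1 and 61529883 UMIs in 7538 barcodes for mouse 2, of which 3829 and 5330 barcodes were annotated with 1 of 18 clusters. The annotated cells had medians of 15014 and 9470 UMIs. The 2 libraries shared 20 barcodes, 9 of them annotated in both. The study reads cluster 6 as lumino-basal, cluster 13 as mature luminal and clusters 15 and 16 as basal. Clusters 6, 13 and 15 are taken up singly here and the other 15 clusters, among them cluster 16, are pooled as the bulk of the tumor. Cluster 6 held 260 and 167 cells, cluster 13 held 73 and 192, and cluster 15 held 191 in mouse 1 but 17 in mouse 2. A level is stated in CPM, which means that UMIs were summed per gene over the cells that a cluster had in a mouse and scaled to a total of 1000000 over all genes. The mouse is the replicate throughout.

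Vimentin is the intermediate filament of mesenchymal cells and also of basal mammary cells, whereas luminal cells build their filaments from keratins. N-cadherin is an adhesion molecule that often replaces E-cadherin when epithelial cells loosen their contacts. Matrix metalloproteinases are secreted or membrane-anchored enzymes that cut collagen, laminin and other matrix proteins, are made as inactive proforms, and are held in check by the TIMP proteins. MMP14 sits in the plasma membrane and, together with a TIMP, activates pro-MMP2 at the cell surface. In tumors these proteases are made by stromal fibroblasts as well as by carcinoma cells.

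Proximal promoters were available in RefSeq (GRCm38.p6) for 6 of the 8 genes, all but Cdh2 and Mmp2, and the 250 bases before each start site were searched on both strands. The words searched were TGANTCA, the AP-1 element, which reads the same on both strands, TATAAA, found in promoters with a TATA box, and GGGCGG, the core of a GC box. TATAAA was present in Vim, S100a4 and Mmp3 and in 12.4% of all 32851 promoters. GGGCGG was present in Tgfbi, Mmp14 and Timp1 and in 32.7% of all. Only Mmp3 held TGANTCA, which 6.75% of all promoters held. No matches overlapped, and both copies of GGGCGG in Mmp14 lie next to each other. The windows of Mmp3 (chr9:7445572-7445821), Vim (chr2:13574061-13574310), S100a4 (chr3:90603520-90603769) and Mmp14 (chr14:54431348-54431597) are shown, all on the plus strand and 5′ to 3′, because the first 3 genes stood apart in cluster 6 in both mice and the last was made in every cluster. Capitals mark the words found.
Mmp3: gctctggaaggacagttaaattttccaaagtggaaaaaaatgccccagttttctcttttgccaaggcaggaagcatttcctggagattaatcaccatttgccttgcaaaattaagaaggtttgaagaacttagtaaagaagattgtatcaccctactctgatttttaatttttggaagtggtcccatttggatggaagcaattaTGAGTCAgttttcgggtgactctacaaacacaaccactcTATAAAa
Vim: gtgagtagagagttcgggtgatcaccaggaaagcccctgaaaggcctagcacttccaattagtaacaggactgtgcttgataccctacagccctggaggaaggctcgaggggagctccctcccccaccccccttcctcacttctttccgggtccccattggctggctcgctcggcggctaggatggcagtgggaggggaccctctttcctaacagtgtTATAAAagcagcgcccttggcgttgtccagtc
S100a4: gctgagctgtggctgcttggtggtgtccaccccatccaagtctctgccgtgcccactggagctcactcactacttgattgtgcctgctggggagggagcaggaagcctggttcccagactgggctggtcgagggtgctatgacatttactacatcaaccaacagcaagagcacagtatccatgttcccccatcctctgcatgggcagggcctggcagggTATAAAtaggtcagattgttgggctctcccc
Mmp14: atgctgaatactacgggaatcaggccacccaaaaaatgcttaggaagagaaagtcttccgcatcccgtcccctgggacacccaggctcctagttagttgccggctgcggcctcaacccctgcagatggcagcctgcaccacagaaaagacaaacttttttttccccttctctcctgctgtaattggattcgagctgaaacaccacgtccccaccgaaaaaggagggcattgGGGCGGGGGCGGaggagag
The AP-1 word of Mmp3 begins 46 bases before the start site and its TATAAA 7 bases before. TATAAA begins 32 bases before the start of Vim and 31 bases before that of S100a4. A word found is a match of letters, and its use by a factor was not measured.

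All 8 genes had their highest mean level in cluster 6, but they differed in how much of their transcript lay there. Mmp3 was nearly restricted to the cluster, and S100a4 was far lower in every other cluster. Vim had a second tier in cluster 15. Mmp2 was second highest there too, but in mouse 1 it lay close to cluster 11 (14.8 and 13.4 CPM). In mouse 2 its cluster 15 level of 74.7 CPM came from 22 UMIs in 5 of 17 cells. Mmp14 and Timp1 were made by many clusters. The order of the levels is a description, since expression of these genes went into the clustering. The map of levels by cluster shows these patterns.

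**Figure D1:**
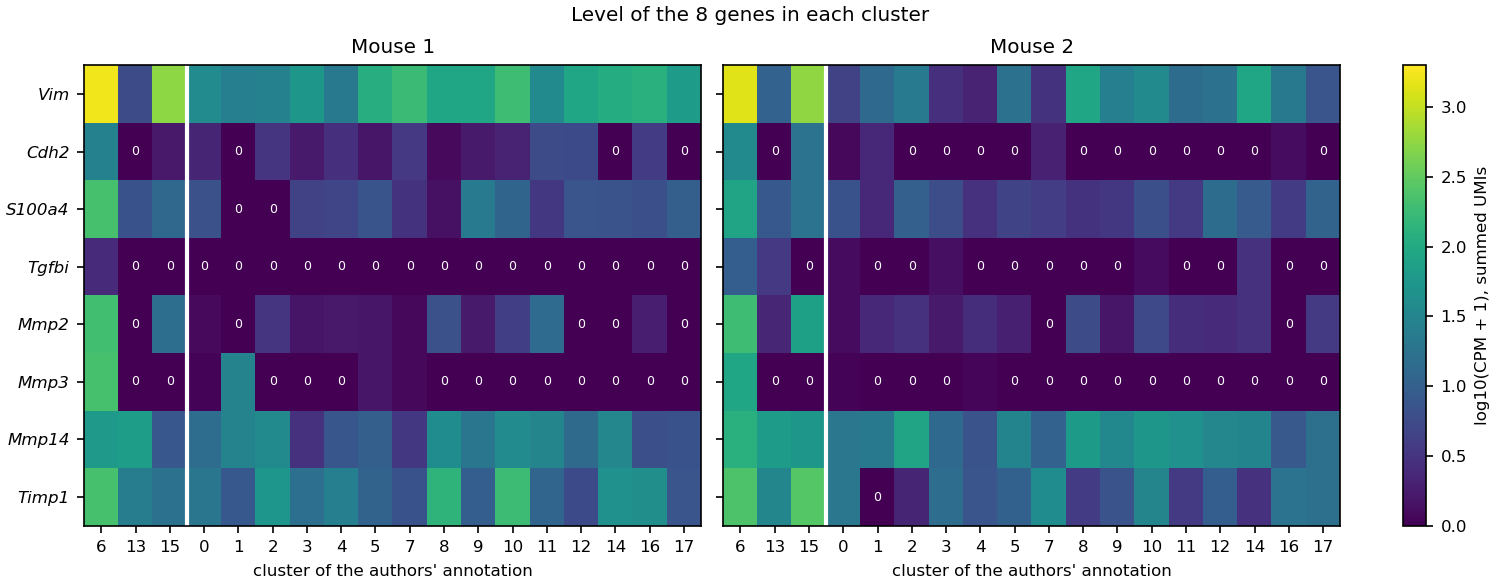
Level of each gene (rows) in each of the 18 clusters (columns) of mouse 1 and mouse 2, as log10(CPM + 1) of UMIs summed over the cells of the cluster; clusters 6, 13 and 15 stand left of the white line and 0 marks a cluster with no UMI of the gene. Cluster 6 is bright for Vim, S100a4, Mmp2, Mmp3 and Timp1 in both mice, Mmp3 has no UMI in 13 of the 18 clusters of mouse 1 and 15 of those of mouse 2, and Mmp14 is above 0 in all 18.

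Vim (GRCm38 chromosome 2, 13573927 to 13582826) reached 1716 CPM in the cluster 6 cells of mouse 1 and 1383 CPM in those of mouse 2. In cluster 15 it stood at 543 and 560 CPM. Across the 15 other clusters it ranged from 20.8 to 186 CPM in mouse 1 (median 85.4) and from 1.13 to 89.5 CPM in mouse 2 (median 16.2). The ranges of the mice did not overlap between cluster 6 and cluster 15, nor between cluster 15 and the next, cluster 10. Below that, neighbours in the order overlapped throughout. Cluster 13 came last, with 4.92 and 9.93 CPM from 6 and 24 UMIs. Vim was higher in mouse 1 than in mouse 2 in all 15 other clusters, and in cluster 7 by the most, with 177 against 2.00 CPM. In cluster 15 mouse 2 was slightly the higher. With 2 animals of 1 condition, differences between mice were not tested.

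Vimentin transcript was found in many cluster 6 cells, not in a few. After every cell was thinned at random to 2000 UMIs, so that deeply sequenced cells are not favoured, 154 of 245 cluster 6 cells of mouse 1 (62.9%, exact Clopper-Pearson 95% interval 56.5 to 68.9%) and 81 of 157 of mouse 2 (51.6%, 43.5 to 59.6%) held a Vim UMI. Intervals of this kind cover counting error only. Without thinning the shares were 82.7% and 68.3%. In cluster 13, taken as the background because mature luminal cells should lack vimentin, the thinned shares were 1.39% and 0.546%, at median depths of 15278 and 11818 UMIs per cell against 12186 and 8146 in cluster 6. Cluster 15 had 39.3% and 29.4%, and the 15 other clusters 7.60% and 2.60%. The 5 cells with the most Vim held 17.9% and 21.4% of its cluster 6 UMIs.

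Cdh2, on chromosome 18, was a low transcript with a narrow distribution. Its level was 27.6 and 37.1 CPM in cluster 6, from 94 and 59 UMIs. It had no UMI in cluster 13 of either mouse. Among the 15 other clusters the highest was cluster 11 of mouse 1 at 4.89 CPM, and 12 of all 18 clusters of mouse 2 had none. Cluster 15 was discordant, with 0.705 CPM from 3 UMIs in mouse 1 and 16.97 CPM from 5 UMIs in mouse 2. A Cdh2 UMI was held by 57 of 260 cluster 6 cells in mouse 1 (21.9%, 17.05 to 27.5%) and 28 of 167 in mouse 2 (16.8%, 11.4 to 23.3%). After thinning to 2000 UMIs 2.04% and 7.01% remained, and in cluster 13 none did (0 of 72 and 0 of 183, upper bounds 4.99% and 2.00%).

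S100a4, a calcium-binding protein gene linked to cell motility (chromosome 3 from 90603771 to 90606045), stood at 217 and 83.0 CPM in cluster 6. No other cluster passed 22.1 CPM in mouse 1 (cluster 9) or 16.97 CPM in mouse 2 (cluster 15). Cluster 13 had 5.74 and 7.03 CPM. Cluster 6 was therefore set apart from the next cluster in both mice, and from there on the ranges of neighbours overlapped down to cluster 13. Within cluster 6 its transcript was uneven: 94 cells of mouse 1 and 41 of mouse 2 held a UMI, and the 5 highest cells held 38.0% and 47.7% of all its UMIs there. At 2000 UMIs per cell, 17.6% and 10.8% of cluster 6 cells held a UMI, against 1.39% and 2.19% in cluster 13.

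Tgfbi, which encodes an extracellular protein that binds integrins and collagen (chromosome 13 from 56609523 to 56639562), was close to absent from the annotated cells. Mouse 1 had 5 UMIs in all, each in cluster 6 (1.47 CPM) and 4 of them in a single cell. Mouse 2 had 27 UMIs, of which 14 lay in 9 cells of cluster 6 (8.80 CPM) and 6 in cluster 13 (2.48 CPM). The range of cluster 6 overlapped that of cluster 13. Barcodes without annotation held far more of it, as given with the other observations.

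Mmp2, the gene of gelatinase A (chromosome 8 from 92827291 to 92853420), had 200.3 and 188 CPM in cluster 6, the closest agreement between the mice among the 3 proteases. Cluster 15 followed with 14.8 and 74.7 CPM, and cluster 11 of mouse 1 had 13.4. The other 14 of the 15 remaining clusters stood at or under 5.56 CPM in mouse 1 and all 15 at or under 4.63 CPM in mouse 2. Cluster 13 had 0 and 3 UMIs. A UMI was held by 127 cluster 6 cells of mouse 1 and 71 of mouse 2, so Mmp2 was spread over many cells, with 21.8% and 30.1% of its UMIs in the top 5. At 2000 UMIs per cell the shares were 25.7% (20.4 to 31.7%) and 23.6% (17.2 to 31.0%) in cluster 6, 0 of 72 and 0 of 183 in cluster 13, and 0.353% and 0.267% in the 15 other clusters.

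Mmp3, the gene of stromelysin 1 (chromosome 9 from 7445822 to 7455975), was the most restricted of the 8 and also the most concentrated. Cluster 6 held 751 of 770 of its UMIs in mouse 1 and 138 of 140 in mouse 2, or 220.2 and 86.8 CPM. These came from 15 of 260 and 10 of 167 cells, the highest of which held 158 and 56 UMIs, or 21.0% and 40.6% of the total. The top 5 cells held 71.9% and 89.1%. Outside cluster 6 only 4 cells of mouse 1 and 2 of mouse 2 had a UMI, and 16 of the 19 UMIs outside in mouse 1 came from a single cluster 1 cell (28.9 CPM in cluster 1). The level of Mmp3 in cluster 6 was thus set by few cells, and the share of cells with a UMI, 4.90% and 4.46% at 2000 UMIs, was much smaller than for Mmp2.

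Mmp14, the gene of the membrane-anchored MT1-MMP (chromosome 14 from 54431612 to 54445364), was found in every cluster. It stood at 60.7 and 125 CPM in cluster 6 and at 68.1 and 64.1 CPM in cluster 13, so the mature luminal cluster had the higher value in mouse 1 and the lower in mouse 2. Next came cluster 2 (36.6 and 83.0 CPM), whose range overlapped both, cluster 8 (38.7 and 61.2), which reached cluster 6 but not cluster 13, and cluster 10 (37.8 and 55.4), which reached neither. The lowest were clusters 3, 4, 7 and 16, at 1.98 to 6.71 CPM in mouse 1 and 6.07 to 12.5 CPM in mouse 2. Of the 15 other clusters, 12 had more Mmp14 in mouse 2, the reverse of Vim. Without thinning 38.8% and 52.1% of cluster 6 cells and 56.2% and 50.0% of cluster 13 cells held a UMI. At 2000 UMIs the shares were 9.80% and 21.0% in cluster 6 and 5.56% and 18.03% in cluster 13, with overlapping intervals in each mouse.

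Timp1, the secreted inhibitor of most of these enzymes (chromosome X from 20870166 to 20874735), stood at 218 and 240.2 CPM in cluster 6 and at 23.8 and 31.4 CPM in cluster 13. Several other clusters were high in 1 mouse alone. Cluster 15 had 16.7 CPM in mouse 1 and 265 in mouse 2, cluster 10 had 181 and 31.0, and cluster 8 had 139 and 2.83. The ranges of cluster 6 and cluster 15 overlapped for that reason, and the cluster 15 UMIs of mouse 2 came from 3 of 17 cells. In mouse 1 the highest cluster 6 cell held 205 of 744 UMIs (27.6%), and the top 5 cells held 49.9% in mouse 1 and 49.0% in mouse 2. At 2000 UMIs per cell 15.5% and 15.9% of cluster 6 cells held a Timp1 UMI, against 5.56% and 3.28% in cluster 13.

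**Figure D2:**
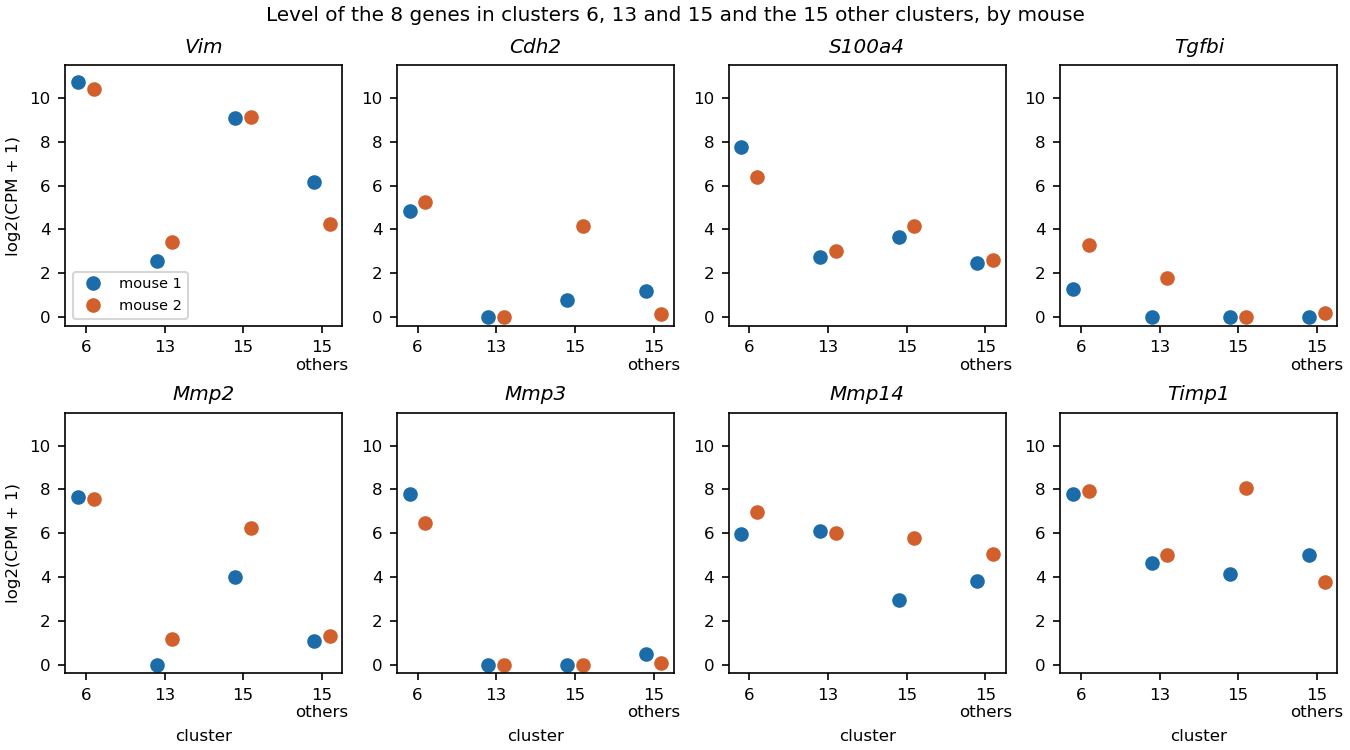
Level of each gene as log2(CPM + 1) in cluster 6, cluster 13, cluster 15 and the 15 other clusters summed; each point is 1 mouse. Both mice sit higher in cluster 6 than in cluster 13 for every gene except Mmp14, where cluster 13 is higher in mouse 1 (68.1 against 60.7 CPM), and in cluster 15 the mice lie far apart for Timp1 (16.7 and 265 CPM).

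The first comparison, the one the study makes between its lumino-basal and mature luminal clusters, set the sums of cluster 6 against those of cluster 13 with edgeR's quasi-likelihood test and the mouse as a block. Of the 8 genes, 7 passed the filter on low counts and 6 were higher in cluster 6, among 9794 genes tested of which 16.3% were higher there and 12.1% lower. Cdh2, Mmp2 and Mmp3 passed the filter through cluster 6 alone, so for these 3 a difference was bound to appear, and the call adds nothing to the counts themselves. The level of Vim was 7.42 ± 3.54 CPM in cluster 13 (SD, n = 2) and 1550 ± 236 CPM in cluster 6, a log2 fold change of 7.49 (SE 0.31, edgeR adjusted p = 2.7e-19). S100a4 rose by 4.18 (SE 0.37, edgeR adjusted p = 4.2e-11), and Timp1 by 2.95 (SE 0.28, edgeR adjusted p = 2.0e-10). For Cdh2 and Mmp3, which had no UMI in cluster 13, a lower bound stands in for the fold: taking 3 UMIs for cluster 13 as a whole, Cdh2 was at least 37.1-fold higher and Mmp3 at least 216-fold. Mmp2 had 982 UMIs against 3, or 238 times the level after scaling for depth (95% interval from counting error 81.2 to 1156). Mmp14 did not pass, with 92.6 ± 45.1 CPM in cluster 6, 66.1 ± 2.78 CPM in cluster 13 and a log2 fold change of 0.32 (SE 0.29, edgeR adjusted p = 0.46). Tgfbi was left out by the filter, with 19 UMIs in cluster 6 and 6 in cluster 13.

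Because expression of these genes went into the clustering, the test asks at most whether both mice show the difference. A gene's own spread between the mice had 1 degree of freedom in this fit. The spread shared by all genes had 32.0, so the p-values rest mostly on the latter. DESeq2 did not call Cdh2 (adjusted p = 0.25, range over all alternatives 8.9e-20 to 0.25) or Mmp3 (0.088, range 3.4e-48 to 0.088), a joint edgeR fit of all 8 sums did not call Timp1 (0.058, range 8.4e-21 to 0.065), and without cluster 6 of mouse 2 edgeR called no gene at all at an adjusted p under 0.05, although 3053 of 10672 had an unadjusted p under it.

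Against the 15 other clusters all 8 genes were higher in cluster 6, among 14291 genes tested of which 13.3% were higher and 8.11% lower. Vim stood at 44.9 ± 38.0 CPM (SD, n = 2) in the 15 clusters, a log2 fold change of 5.38 (SE 0.35, edgeR adjusted p = 5.0e-07). The cadherin Cdh2 had 0.690 ± 0.815 CPM there and a log2 fold change of 5.78 (SE 0.64, edgeR adjusted p = 5.2e-05). S100a4 had 4.89 ± 0.382 CPM and 4.78 (SE 0.34, edgeR adjusted p = 1.2e-06). Among the proteases, Mmp3 had the highest log2 fold change, 9.56 (SE 0.33, edgeR adjusted p = 3.2e-09), followed by Mmp2 with 7.17 (SE 0.24, edgeR adjusted p = 2.4e-09). Mmp14, which did not separate clusters 6 and 13, rose here by 2.03 (SE 0.18, edgeR adjusted p = 9.7e-06), from 13.1 to 60.7 CPM in mouse 1 and from 32.7 to 125 CPM in mouse 2. Timp1 rose by 3.46 (SE 0.28, edgeR adjusted p = 4.0e-06). Tgfbi, the last of the 8, had 19 UMIs in cluster 6 against 7 in the 15 other clusters. It passed the filter on low counts through cluster 6 alone, so its call was bound to appear and adds nothing to these counts.

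This comparison and the first share the cluster 6 sums, so the values are given side by side only. Here too a gene's own spread had 1 degree of freedom, against 10.4 for the spread shared by all genes. Without the mouse block edgeR did not call Tgfbi (adjusted p = 0.075, range over all alternatives 2.3e-05 to 0.21) or Mmp14 (0.10, range 6.6e-20 to 0.24), and leaving out 1 sum at a time left 5 to 7 of the 8 called, the fewest without cluster 6 of mouse 2, where Mmp14 (0.24) and Cdh2 (0.065, range 6.6e-55 to 0.065) did not pass and Tgfbi was not tested.

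Cluster 15 was set against the same 15 clusters, and shares that reference with the second comparison. Vim, Mmp2 and S100a4 were higher in both mice, Timp1, Cdh2 and Mmp14 in mouse 2 alone, and 6 of the 8 genes could be tested. edgeR called 3 of them higher, among 13707 genes tested of which 3.84% were higher. Vim had 552 ± 11.7 CPM (SD, n = 2) in cluster 15 and a log2 fold change of 3.87 (SE 0.25, edgeR adjusted p = 3.3e-50). Mmp2 had 44.7 ± 42.3 CPM and 4.57 (SE 0.56, edgeR adjusted p = 2.6e-14). Timp1 was called too, with 1.66 (SE 0.35, edgeR adjusted p = 8.8e-05), although it was lower in cluster 15 of mouse 1 (16.7 against 31.5 CPM). In mouse 2 it was higher (265 against 12.8 CPM), from 78 UMIs that lay in 3 of the 17 cells. Cdh2 (log2 fold change 2.58, SE 1.35), S100a4 (1.42, SE 0.58) and Mmp14 (-0.25, SE 0.37) did not pass, with edgeR adjusted p of 0.35, 0.14 and 0.93. Cluster 15 had no UMI of Mmp3 or Tgfbi in either mouse, and these were not tested.

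In this fit edgeR gave a gene's own spread between the mice no weight against the spread shared by all genes, so a p-value does not register that the mice moved in opposite ways. Without the mouse block none of the 3 passed (edgeR adjusted p = 0.058 for Vim, 0.051 for Mmp2 and 0.38 for Timp1; ranges over all alternatives 4.9e-51 to 0.26, 2.3e-14 to 0.17 and 2.2e-07 to 1), DESeq2 and the joint fit did not call Timp1, and none passed without cluster 15 of mouse 2, which left 0 called of all genes in edgeR and 1827 at an unadjusted p under 0.05.

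**Figure D3:**
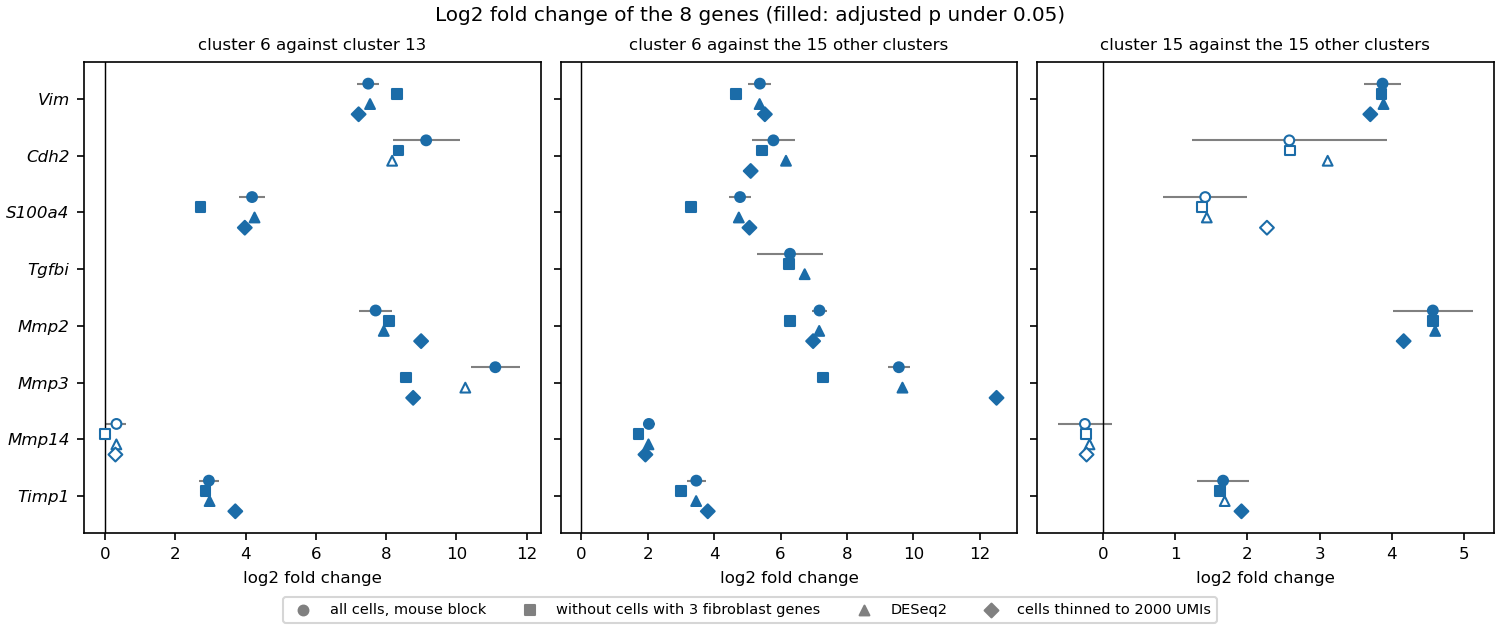
Log2 fold change of each gene in the 3 comparisons; circles are the edgeR fit on all cells with bars of 1 SE, squares leave out cells with 3 or more fibroblast-list genes, triangles are DESeq2 and diamonds use cells thinned to 2000 UMIs. Filled symbols have an adjusted p under 0.05; Mmp14 lies at 0.32 against cluster 13 and 2.03 against the 15 other clusters, and the values for Cdh2 and Mmp3 against cluster 13, which had no UMI of either, depend on the small count that the fit adds.

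Genes of fibroblasts were highest in the same cluster. A list of 13 fibroblast genes, headed by collagens, Dcn and Pdgfra, summed to 1787 and 3694 CPM in cluster 6, where every gene of the list had a UMI in both mice, against 64.0 and 329 CPM in cluster 13 and 312 and 346 CPM in cluster 15, the next highest. Pericyte genes summed to 70.1 and 363 CPM in cluster 6. In mouse 1 this was not set apart, with 98.6 CPM in cluster 10 and 68.1 CPM in cluster 13, and in mouse 2 cluster 10 was next with 136 CPM. Endothelial genes summed to 47.5 and 516 CPM in cluster 6, and the next highest were cluster 8 of mouse 1 (35.3 CPM) and cluster 11 of mouse 2 (114 CPM). The 10 macrophage genes, 4 of them at 0 in each mouse, reached 20.5 and 42.8 CPM in cluster 6. Basal and myoepithelial genes reached 4615 and 4510 CPM in cluster 6 and 452 and 2341 CPM in cluster 15, and luminal keratin and junction genes 9091 and 7996 CPM in cluster 6 against 31001 and 29798 CPM in cluster 13. Cells with UMIs of 3 or more fibroblast genes made up 63 of 260 cluster 6 cells in mouse 1 and 40 of 167 in mouse 2.

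The 8 genes differed in their share of UMIs when cluster 6 cells were split by these fibroblast genes. Mmp3 and S100a4 lay mainly in the cells with 3 or more, which held 86.4% and 82.6% of the cluster's Mmp3 UMIs and 74.7% and 74.2% of its S100a4 UMIs. For Vim the shares were 56.0% and 54.1%, and for Mmp2 they were 55.2% and 64.5%. The shares were lower than those of Vim for Timp1 (39.9% and 50.5%) and Mmp14 (45.4% and 34.3%). For Cdh2 they were lower in mouse 1 (33.0%) and like those of Vim in mouse 2 (54.2%). In CPM, cells with 3 or more still exceeded cells with fewer for Mmp14 (101 against 45.6 and 181 against 107). The same held for Timp1 (318 against 180 and 514 against 156). In mouse 2, though, Timp1 stood at 109 CPM in cells with 3 to 5, under the 137 and 168 CPM of cells with 0 and with 1 to 2. The 18 cells with 6 or more had 1212 CPM. Cdh2 had 33.2 against 25.4 CPM in mouse 1, with overlapping counting intervals, and 85.3 against 22.2 CPM in mouse 2. Tgfbi had shares of 20.0% and 28.6%, from 5 and 14 UMIs in the cluster. Mmp2 climbed with the number of fibroblast genes in both mice, from 43.0 and 34.7 CPM in cells with none to 793 and 813 CPM in cells with 6 or more. Mmp3 had no UMI in the 65 and 61 cells with none and reached 1586 and 827 CPM in the 12 and 18 cells with 6 or more. Vim was already at 1055 and 1037 CPM in cells with none and stood at 4257 and 3142 CPM in cells with 6 or more. The split uses cells of the same libraries, and no test was made of it.

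**Figure D4:**
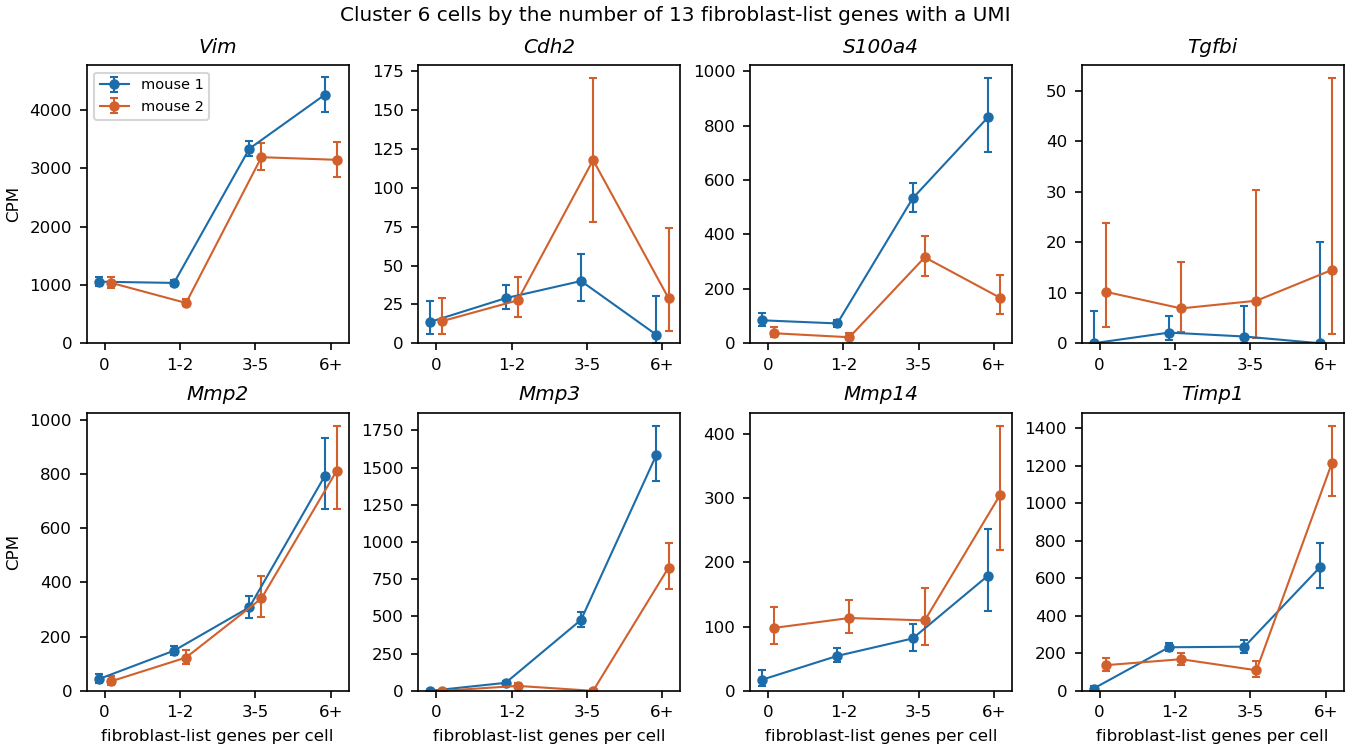
Level (CPM) of each gene in cluster 6 cells grouped by how many of 13 fibroblast-list genes had a UMI (0, 1 to 2, 3 to 5, 6 or more), for mouse 1 and mouse 2; bars are exact Poisson 95% intervals, which cover counting error only. Mmp2 rises from 43.0 and 34.7 CPM to 793 and 813 CPM, Mmp3 is at 0 in the cells with none, and Vim is at 1055 and 1037 CPM there.

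Cluster 6 cells with keratin UMIs held vimentin and Mmp2 transcripts as well. Among cells with fewer than 3 fibroblast genes, 69 of mouse 1 and 63 of mouse 2 had UMIs of both luminal and basal keratins. These cells had 884 and 428 CPM of Vim, 194 and 119 CPM of Mmp2 and 27.2 and 26.4 CPM of Cdh2, and they had 0 and 24 UMIs of Mmp3. Cells with luminal keratins only, 94 and 54 in number, had 777 and 963 CPM of Vim and 61.5 and 47.8 CPM of Mmp2. The 32 and 10 cells with no keratin UMI had 4464 and 4856 CPM of Vim, at low median depths of 3134 and 4042 UMIs. Of the thinned cells with a Vim UMI in cluster 6, 53.9% (45.7 to 61.9%) in mouse 1 and 58.0% (46.5 to 68.9%) in mouse 2 also held a Krt8 or Krt18 UMI. In the 15 other clusters the shares were 94.9% and 97.2%. Keratin genes are among the most abundant of the tumor. Barcodes outside the annotation with a mitochondrial share no higher than that of annotated cells had, as a pool, 1116 and 5792 CPM of the luminal list. In that pool 60% and 67.3% of barcodes had UMIs of 3 or more macrophage genes, and 8.57% and 19.2% of 3 or more luminal genes. Whether the same barcodes held both was not examined. A keratin UMI was not taken here to make a cell epithelial, and the part of free RNA or of mixed droplets in these values was not tested.

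Leaving the cells with 3 or more fibroblast genes out of all groups kept the same 6 genes called against cluster 13. In this setting 1296 of all 9446 genes tested were higher in cluster 6. Cdh2, Mmp2 and Mmp3 are among the 6 and passed the main filter through cluster 6 alone, so their calls again add nothing to the counts. The log2 fold change of Vim became 8.31, that of Mmp2 8.07, that of Timp1 2.86 and that of S100a4 2.71, and Mmp14 came to -0.0076 (edgeR adjusted p = 0.99). Against the 15 other clusters all 8 stayed called, among 14151 genes tested of which 1411 were higher, with Mmp3 at 7.27 and S100a4 at 3.31. Tgfbi is among the 8 and passed the main filter there through cluster 6 alone, so its call adds nothing. The same 6 and 8 genes were called when cells with 3 or more genes of any non-epithelial list were left out. Of all genes tested there, 1158 of 9366 and 1408 of 13993 were higher in cluster 6.

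Single cells with several of these transcripts were found mostly in cluster 6. At 2000 UMIs per cell, 19.6% (14.8 to 25.1%) of cluster 6 cells in mouse 1 and 18.5% (12.7 to 25.4%) in mouse 2 held UMIs of 3 or more of the 8 genes, against 0 of 72 and 0 of 183 in cluster 13, 1 of 191 and 1 of 17 in cluster 15, and 1 of 2829 and 0 of 4116 in the 15 other clusters. In cluster 6 cells with fewer than 3 fibroblast genes the shares were 8.70% and 6.67%. No member was detected in 26.9% and 29.9% of cluster 6 cells. Mmp2 and Mmp14 UMIs, the protease and its activator, were found together in 3.67% and 6.37% of cluster 6 cells. Mmp14 and Timp1 UMIs were found together in 2.04% and 4.46%. At this depth a cell that lacks a UMI may still contain the transcript.

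Related genes were taken from 9 lists, which are described by counts and medians without a test of any list. They should be read beside the 16.3% of all genes higher and 12.1% lower against cluster 13. For the 15 other clusters these shares were 13.3% and 8.11%. Of 9 EMT transcription factors, 7 could be tested and all 7 were higher in cluster 6, 5 of them having passed the filter through cluster 6 alone. Their median log2 fold change was 5.70, or 4.72 with the genes at 0 in cluster 13 set to their lower bound, against 0.01 over all genes tested. The fibroblast list was higher in the same cluster (1787 and 3694 CPM against 64.0 and 329), and its part in these values was not tested. Zeb1 and Prrx1 had no UMI in cluster 13 and 109 and 176 UMIs in cluster 6. Zeb2 stood at 48.1 and 53.5 CPM in cluster 6, with 3 UMIs in cluster 13, and Twist1 had 321 UMIs against 3. Against the 15 other clusters 8 of 8 tested were higher, with a median of 4.22, and 2 of them had passed the filter through cluster 6 alone.

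Matrix genes that respond to TGF-beta were higher in cluster 6 for 10 of 12 tested and lower for none, 7 of the 12 having passed the filter through cluster 6 alone, with a median log2 fold change of 8.14, or 6.64 with genes at 0 set to their lower bound. Sparc, a collagen-binding matricellular protein, stood at 2517 and 2295 CPM in cluster 6 and 0.820 and 4.55 CPM in cluster 13. Both cluster 13 values lie under the filter's cutoff of 4.99 CPM. Sparc thus passed through cluster 6 alone, and its call adds nothing to these levels. Postn had 3641 UMIs against 1, Col1a2 1641 against 0, and the collagen cross-linking enzyme Lox 216 against 0. Col1a1 and Col1a2 are also in the fibroblast list. All 13 were higher when the 15 other clusters were the reference, 3 of them having passed the filter through cluster 6 alone.

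Other secreted and surface proteases were mixed. Of 18 further matrix metalloproteinases measured, only 2 had enough counts against cluster 13, 1 of them through cluster 6 alone. Mmp19 was higher in cluster 6 (98 UMIs against 1). Mmp15, a membrane-anchored relative of Mmp14, was lower, at 9.68 and 13.2 CPM against 64.8 and 50.1 CPM (log2 fold change -2.45, SE 0.35, edgeR adjusted p = 8.5e-07). Of 12 ADAM and ADAMTS genes tested, 7 were higher and 2 were lower, with 6 having passed through cluster 6 alone and a median log2 fold change of 4.49 (3.78 with genes at 0 set to their lower bound). Adamts2, which trims procollagen, had 204 UMIs against 0, the aggrecan-cutting Adamts5 had 229 against 1, and Adam12 had 40 against 0. Adamts4, which also cuts aggrecan, stood at 17.3 and 119 CPM against 0 and 2.07 CPM. In the plasminogen list 3 of 8 were higher and 1 was lower, with a median of 0.49, and 2 of the 8 had passed through cluster 6 alone. Serpine2 had a log2 fold change of 3.83 (SE 0.29, edgeR adjusted p = 8.6e-13), and Serpinb2 had 117 UMIs against 0. The urokinase receptor gene Plaur was lower, at 267 and 321 CPM against 779 and 460 CPM (log2 fold change -1.13, edgeR adjusted p = 0.00032). Against the 15 other clusters 2 of 7 further matrix metalloproteinases, 8 of 15 ADAM and ADAMTS genes and 7 of 8 plasminogen genes were higher, and 1, 0 and 0 were lower. Tested genes that passed the filter through cluster 6 alone numbered 4, 1 and 1 in these lists.

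Inhibitors other than Timp1 were higher for all 3 tested against cluster 13, with a median log2 fold change of 3.11, and 1 of the 3 had passed the filter through cluster 6 alone. Timp3, which is held in the matrix, stood at 773 and 817 CPM in cluster 6 and 23.0 and 18.2 CPM in cluster 13 (log2 fold change 5.19, SE 0.28, edgeR adjusted p = 1.6e-16). Timp2, the partner of MMP14 in activating MMP2, was broadly made, with 569 and 323 CPM in cluster 6 and 340.3 and 146 CPM in cluster 13 (log2 fold change 0.85, SE 0.23, edgeR adjusted p = 0.0046). Reck had 46 UMIs against 3. Of 4 inhibitors tested against the 15 other clusters, 3 were higher and none was lower.

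Relatives of vimentin, N-cadherin and S100A4 were called in both directions, in small numbers. E-cadherin (Cdh1) was lower in cluster 6, with 202 and 279 CPM against 539 and 586 CPM in cluster 13 (log2 fold change -1.34, SE 0.23, edgeR adjusted p = 1.4e-05). P-cadherin (Cdh3), a cadherin of basal cells, was higher by 1.78 (SE 0.59, edgeR adjusted p = 0.021). Cdh5, the cadherin of endothelial cells, had 177 UMIs against 0, most of them in mouse 2 (95.6 CPM against 7.33 in mouse 1), and is in the endothelial list. Of 8 cadherin and catenin genes tested, 2 were higher, 1 was lower and 5 were not called, with a median log2 fold change of -0.35. Through cluster 6 alone, 2 of these 8 had passed the filter. Among other filaments 2 of 4 were higher, with a median of 1.31: nestin (Nes) by 1.90 (SE 0.35, edgeR adjusted p = 4.4e-05), and synemin (Synm) with 46 UMIs against 2. Through cluster 6 alone, 1 of the 4 had passed the filter. Of 11 other S100 genes, 3 were higher and 4 were lower, with a median of -0.24, and 2 of the 11 had passed through cluster 6 alone. S100a6 fell by 1.64 on the log2 scale, from 13240 and 14728 CPM in cluster 13 to 4820 and 4785 CPM in cluster 6 (edgeR adjusted p = 4.1e-12), and S100a14 fell by 2.25 (edgeR adjusted p = 4.4e-08). S100b had 152 UMIs against 3 and S100g 93 against 0. Against the 15 other clusters 4 of 9 cadherins and catenins, 2 of 7 filaments and 5 of 12 S100 genes were higher, and 1, 1 and 3 were lower. Of the 9 cadherins and catenins, 2 had passed the filter through cluster 6 alone.

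The genes whose level ran most alike differed between members. Likeness was the Pearson correlation of log2(CPM + 1) over the 36 sums of cluster and mouse, among 7864 genes with a mean of at least 10 CPM; sums of a mouse share a library, and cluster 6 weighs heavily in each value. Mmp3 ran with Col1a2 (r = 0.89), Col1a1 (0.87) and Igfbp3 (0.87). Mmp2 ran with Col5a2 (0.87), Fstl1 (0.85) and Serpinf1 (0.82), and Cdh2 with Serpinf1 (0.83), Fstl1 (0.83) and Sparc (0.80). Vim ran with Hexa (0.80), Mylk (0.79) and Col4a1 (0.77), S100a4 with Emp3 (0.76), Tagln (0.76) and Prnp (0.75), and Tgfbi with Col3a1 (0.74), Il6 (0.73) and Col1a2 (0.71). Mmp14 had Lima1 (0.86) and Tgfb1 (0.82) among the nearest to it. Timp1 was nearest to Nfe2l2 (0.75), Ppp1r18 (0.71) and Rbms1 (0.69).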

How the data were processed

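Raw UMI counts of each gene in each barcode were deposited by the authors, made with Cell Ranger (6.0.1 in the submitters' processing notes) on mm10, together with a deposited table of the cluster and mitochondrial fraction of every cell they kept. Per the methods, doublets were removed with scDblFinder, cells were filtered, the mice were integrated and clustered in Seurat (4.0.3 in the submitters' processing notes), and clusters with lymphoid or myeloid markers were dropped ahead of a last round of clustering. The mitochondrial share used here to sort barcodes without annotation was computed from the matrices.

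Annotated cells were looked up in the matrices through library and barcode, counts were summed per mouse and cluster, and sums were tested with edgeR 4.0.16 (limma 3.58.1, R 4.3.3): filterByExpr, TMM and the quasi-likelihood test, blocked on the mouse. P-values were adjusted by Benjamini-Hochberg over all genes tested, with a threshold of 0.05. Each fit had 1 residual degree of freedom. The pairing comes from the animal; across genes, the mouse 1 minus mouse 2 difference in the first group correlated with that in the second at r = 0.14, 0.34 and 0.12 in the 3 comparisons. Each SE was obtained by dividing the absolute fold change (log2) by the root of the F statistic. DESeq2 1.42.0 and the other settings were alternatives, and the test was tried on simulated counts. Cells were thinned without replacement (seed 1), and cells under 2000 UMIs were left out of the shares. Lower bounds use a floor of 3 UMIs.

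The 8 genes and all gene lists were chosen with earlier results of these data known. Genes named from a list are up to 4 past the threshold against cluster 13 with the largest absolute log2 fold change. For each of the 8, the 3 most alike genes are named. Of the genes these rules select, 2 are not reported here. Gene positions come from GENCODE vM21 (GRCm38, the build of the matrices).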

Additional observations from a re-analysis of the deposited data

Results flagged for a closer look

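Barcodes that the authors' annotation leaves out held some of the 8 genes above the level that a count of 0 would allow (3 UMIs), and are given because no comparison above uses them. They were sorted here by whether their mitochondrial share of UMIs exceeded that of every annotated cell of the same mouse. Of those with an ordinary share (35 barcodes in mouse 1 and 260 in mouse 2), Vim stood at 1431 and 1072 CPM, S100a4 at 1356 and 525 CPM and Mmp14 at 69.4 and 49.2 CPM. Tgfbi reached 368 CPM from 69 UMIs in mouse 1 and 345 CPM from 463 UMIs in mouse 2, where all annotated cells together had 5 and 27 UMIs. Mmp2 (14.2 CPM) and Timp1 (6.71 CPM) passed the limit in mouse 2 alone. Mmp3 had no UMI in these barcodes in either mouse. The 10 macrophage-list genes summed to 12980 and 9430 CPM there and the 13 fibroblast-list genes to 0 and 10.4 CPM; their part in the levels was not tested.

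The barcodes with a high mitochondrial share (2311 and 1948) had low levels. Vim stood at 45.3 and 23.3 CPM, Mmp14 at 14.8 and 30.5 CPM, S100a4 at 3.01 and 3.73 CPM, Mmp2 at 3.47 and 1.55 CPM and Timp1 at 3.24 and 1.87 CPM. In mouse 1 alone Mmp3 passed the limit, with 1.62 CPM, and in mouse 2 alone Cdh2 and Tgfbi, each with 1.24 CPM.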

How the results depend on the processing

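Of 254 log2 fold changes of single genes under alternative settings, 222 kept direction and side of the threshold, 25 kept direction and no longer passed, and 7 changed sign. Leaving out 1 sum of a cluster and mouse at a time left 0 to 6 genes called against cluster 13, 5 to 7 in cluster 6 against the 15 other clusters and 0 to 3 in cluster 15; these fits had no mouse block, and the lone sum is assumed to vary like the other group. Without the replicate block 0 of the 8 genes were called in cluster 15 (90 of all genes against 1039). Mmp14 changed sign against cluster 13 without cells with 3 fibroblast genes (-0.0076) or with 3 genes of another cell type (-0.088), and ranged from -0.19 to 0.80 with 1 sum left out. For cluster 15 the same ranges were -0.0034 to 4.52 for Cdh2, -1.76 to 1.19 for Mmp14 and -0.44 to 3.50 for Timp1. The cause was not tested. All genes called against cluster 13 numbered 2782, but 1009 with DESeq2, 979 in thinned cells and 0 to 1387 with 1 sum left out. In cluster 6 against the 15 other clusters they numbered 3063, but 1056 without the replicate block, 1447 in thinned cells, 1886 in the joint fit and 519 to 1079 with 1 sum left out. In cluster 15 they numbered 485 with DESeq2, 199 in thinned cells, 563 in the joint fit and 0 to 637 with 1 sum left out. Of 48 shares of cluster 6 cells with a UMI, 24 left their counting interval when thinning was omitted, made deeper or drawn with another seed. With 17 cells of cluster 15 in mouse 2 and Mmp3 in 25 cluster 6 cells, these levels are the least precise.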
